A study of Homo sapiens with 6 samples.

Results

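The genes described here are 50 zinc finger genes at 19q13.43, near the end of the long arm of chromosome 19. They were taken by symbol, as genes chosen for their position, and all 50 of 50 were found among the 56794 genes of the deposited comparison. The members were chosen by position together with the group means of this same comparison, mutant against parental, so every difference between the groups is given for the members as a description, without a test. The cells were HEK293, a line from human embryonic kidney, and their RNA was sequenced in 2 groups of 3 libraries. Both groups expressed luciferase and were grown in DMEM with 10% fetal bovine serum; the parental group was not edited, and the mutant group stands for the libraries labelled mutant, in which the series' design gives CASP8AP2 as deleted with CRISPR. CASP8AP2 RNA stood at 15.7 in those libraries against 15.9 in the parental ones. Where in the gene the deletion lies is not stated in the labels, and this value therefore cannot serve as a check of them. The sources used here do not say whether the mutant cells were 1 clone, and a difference between clones and an effect of the deletion cannot be told apart. CASP8AP2 encodes FLASH, a protein of histone messenger RNA processing. Only the mean of each group was analysed here, so no value of a single library and no spread between libraries can be printed.

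Zinc finger genes of this kind encode proteins that read DNA with an array of C2H2 fingers. Most of the proteins of this cluster carry a KRAB domain, which binds the corepressor TRIM28 (KAP1); TRIM28 in turn brings the histone H3 lysine 9 methyltransferase SETDB1 and heterochromatin proteins to the bound site. Others carry a SCAN domain, through which such proteins pair. Many of their binding sites lie in retrotransposons. The genes arose by tandem duplication, so neighbours resemble each other in sequence. The 3′ ends of many of them are packed in H3 lysine 9 trimethylated chromatin, and ZNF274, a member of the cluster, is known to bind there.

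Levels are abundances scaled for transcript length, summed over the transcripts of a gene, with the 1 that the authors had added taken off. A log2 ratio sets the mutant over the parental group with 1 added to each, a scale that understates the change of low genes. The members lay on build hg38 between chr19:56132599-58302805, a stretch of 2170 kb, with 32 on the plus and 18 on the minus strand. In at least 1 of the groups, 40 members reached an abundance of 1. The filter lets a gene in through its higher group alone.

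Of these 40 members, 30 were lower in the mutant group and 10 higher, where 50.6% of all 14856 genes that passed the same filter were lower. The median log2 ratio of the 40 was -0.24, with quartiles of -0.56 and -0.04 and a range from -3.97 to 0.37; over all genes the median was -0.01. Summed over the 50 members, abundance was 162.2 in the mutant and 216.1 in the parental group, or 0.0327% and 0.0436% of the total. At least 2-fold lower, counted here and below on abundance plus 1, stood 4 members, ZSCAN18, ZIK1, ZFP28 and ZNF256, where 1.61% of all genes did so. Without the added 1, ZNF470 and ZNF329 would also be past 2-fold, with parental levels 9.73 and 2.15 times the mutant ones. None of the 40 stood at least 2-fold higher, against 1.51% of all genes. Under 0.1 in the mutant group and at least 1 in the parental group stood 2 members, ZSCAN18 and ZFP28, against 0.404% of all genes, and the reverse held for none, against 0.0471%. The differences were uneven within the cluster. Without the 4 members at least 2-fold lower the sums were 161 and 192.2, and ZSCAN18 alone made up 27.4% of the summed difference.

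**Figure D1:**
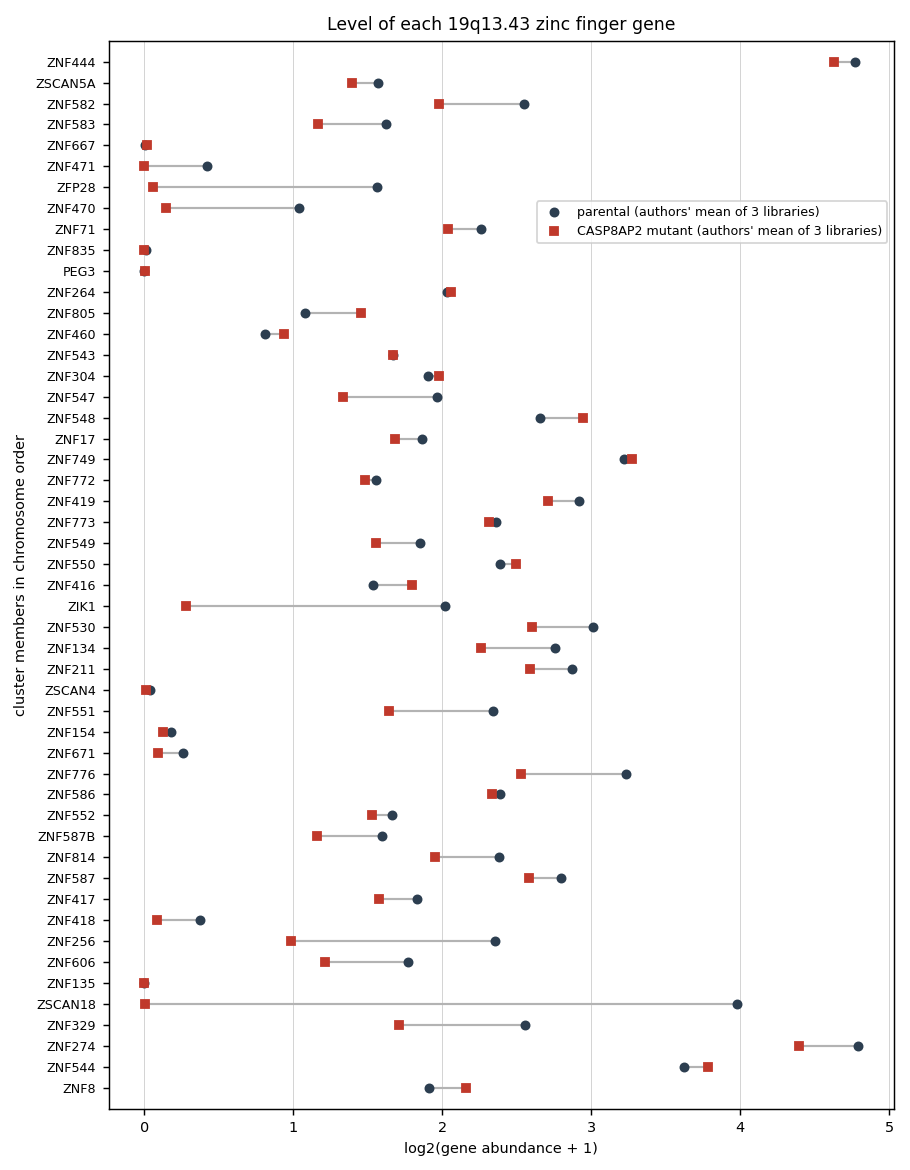
Level of each of the 50 members in chromosome order, as log2 of gene abundance plus 1 on the horizontal axis; each point is the authors' mean of 3 libraries, circles for parental and squares for mutant cells. ZSCAN18, ZIK1, ZFP28 and ZNF256 show the longest gaps, and ZNF444 and ZNF274 the highest levels in both groups.

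ZSCAN18, which encodes a SCAN domain zinc finger protein, had the widest difference of the cluster. Its abundance was 14.8 in the parental group, the third highest of the members there, and 0.00386 in the mutant group, a log2 ratio of -3.97, or -7.16 with 0.1 added in place of 1. The mutant value amounted to an estimated 0.995 reads over 3 libraries, against an estimated 1500 reads in the parental group. These estimates take the abundance to be equal in the libraries of a group, so the true number of reads can differ. The most abundant parental transcript, ZSCAN18-203, stood at 6.92 and was listed at 0 in the mutant group (p 0.0338 in the authors' deposited table). ZSCAN18-201 had 2.45 against a listed 0 and the smallest p-value of any member transcript, 3.8e-05, with an adjusted value of 0.0922 in the authors' deposited table. ZSCAN18-209, the one with reads in the mutant group, had 0.00386 against 2.12. The gene is annotated on the minus strand with several starts. Transcripts that start between 58098203 and 58098363 summed to 4.74 in the parental group, those between 58089961 and 58090598 to 7.66, and those between 58087377 and 58088027 to 2.38. All 3 sets of starts were at or near 0 in the mutant group. The outermost starts, between 58118366 and 58118427, were listed at 0 for the mutant group and had 0.000108 for the parental group.

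ZFP28, which encodes a KRAB zinc finger protein with orthologues across mammals, had 0.0411 in mutant and 1.95 in parental cells, a log2 ratio of -1.50, or -3.86 with 0.1 added in place of 1. The estimated reads were 14.1 and 338. ZFP28-201 held most of the parental level, with 0.0198 against 1.45 (p 0.000364 in the authors' deposited table), and ZFP28-204 had 0.0139 against 0.470 (p 0.0156 there). Both main transcripts were thus low together.

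ZIK1, named for the binding of its protein to the ribonucleoprotein hnRNP K, had 0.216 against 3.06, a log2 ratio of -1.74 (-3.32 with 0.1 added), from an estimated 79.4 and 513 reads. ZIK1-202 stood at 0.0734 against 1.51 (p 0.00129 in the authors' deposited table), ZIK1-204 at 0.0471 against 0.739 (p 0.00407) and ZIK1-207 at 0.0665 against 0.614 (p 0.0277). The starts between 57583610 and 57584260 summed to 0.208 against 3.01. ZIK1-206, which starts farther upstream at 57578456, beside the start of ZNF416, was low in both groups at 0.00859 and 0.0475.

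ZNF256, which encodes a KRAB zinc finger protein, had 0.978 against 4.12, a log2 ratio of -1.37, and unlike the 3 genes above it kept an estimated 220 reads in the mutant group, against 396 in the parental one. The difference lay in 1 transcript: ZNF256-201 stood at 0.759 against 3.81 (p 0.00141 in the authors' deposited table), while ZNF256-202 had 0.219 against 0.311 (p 0.728). ZNF256 was the member just inside the 2-fold line. Just outside it lay ZNF470 at -0.89 and ZNF329 at -0.85.

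**Figure D2:**
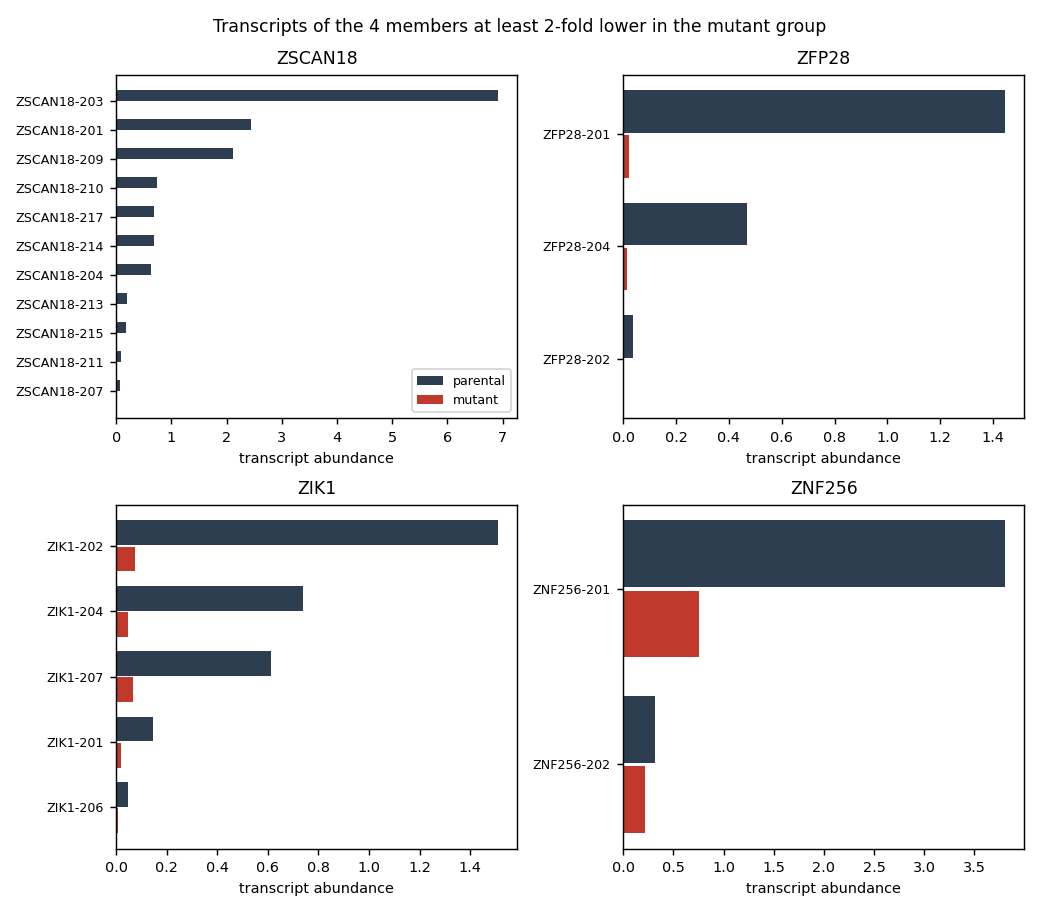
Transcript abundance, on a linear axis, in the parental (dark) and mutant (red) groups for ZSCAN18, ZFP28, ZIK1 and ZNF256; bars are the authors' means of 3 libraries and carry no error bars since no library values were analysed. Every ZSCAN18 bar of the mutant group is at or close to 0, and ZNF256-202 is the one transcript drawn with similar bars in both groups.

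Promoter stretches are shown for 3 of these genes and for 2 members whose levels were not lower, so that start regions of both kinds can be read side by side. They come from RefSeq on GRCh38.p14, run 5′ to 3′ on the strand of the gene, and hold the bases of a window from 250 before to 50 after the start that lie outside annotated exons. ZFP28 had no entry in the table used. The ZSCAN18 stretch adjoins the starts between 58098203 and 58098363. It is not beside those of its most abundant transcript, ZSCAN18-203, between 58089961 and 58090598. ZNF416 is the head-to-head neighbour of ZIK1, and ZNF749 had nearly equal values in both groups. Capitals mark matches, on either strand, to the SP1 box (GGGCGGG), the ETS core (CCGGAAG), the CCAAT box (CCAAT), the NRF1 site (GCGC and TGCGC with any base between) and an element found by looking at these windows (CTACA and CCCA with any 3 bases between, here the CTACA element).
ZSCAN18, chr19:58098364-58098481, minus strand: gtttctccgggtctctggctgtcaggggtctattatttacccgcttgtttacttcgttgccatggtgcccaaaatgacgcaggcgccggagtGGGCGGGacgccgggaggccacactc
ZIK1, chr19:57583976-57584139, plus strand: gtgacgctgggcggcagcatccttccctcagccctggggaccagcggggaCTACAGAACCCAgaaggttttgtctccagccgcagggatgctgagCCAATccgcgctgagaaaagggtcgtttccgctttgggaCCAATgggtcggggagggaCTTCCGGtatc
ZNF256, chr19:57947707-57947956, minus strand: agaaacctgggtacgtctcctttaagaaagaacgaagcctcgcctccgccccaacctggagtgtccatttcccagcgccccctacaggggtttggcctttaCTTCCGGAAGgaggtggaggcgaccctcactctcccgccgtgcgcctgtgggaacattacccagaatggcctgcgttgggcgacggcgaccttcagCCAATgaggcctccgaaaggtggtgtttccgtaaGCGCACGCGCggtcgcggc
ZNF416, chr19:57578941-57579161, minus strand: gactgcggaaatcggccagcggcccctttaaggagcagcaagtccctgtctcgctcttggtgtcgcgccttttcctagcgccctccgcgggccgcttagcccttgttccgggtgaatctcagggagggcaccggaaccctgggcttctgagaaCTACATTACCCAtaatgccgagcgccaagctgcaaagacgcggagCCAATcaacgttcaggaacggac
ZNF749, chr19:57435075-57435324, plus strand: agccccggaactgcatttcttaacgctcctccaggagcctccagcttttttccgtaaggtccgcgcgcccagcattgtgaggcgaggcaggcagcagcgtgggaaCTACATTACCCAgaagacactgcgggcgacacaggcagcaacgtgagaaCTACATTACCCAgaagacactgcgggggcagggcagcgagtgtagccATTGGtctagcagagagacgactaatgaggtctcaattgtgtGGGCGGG
The stretches hold no TATAAA match, and there are 9 CpG in that of ZSCAN18, 10 in ZIK1, 22 in ZNF256, 18 in ZNF416 and 15 in ZNF749. In the same order the stretches run over 118, 164, 250, 221 and 250 bases, so these counts are not directly comparable. The windows of 300 bases used further below held 31, 20, 26, 24 and 18 CpG. The ZSCAN18 window was also counted with NRF1 and CCAAT matches, which its printed stretch does not hold. The CTACA element stands in ZIK1, which was low in the mutant group, and also in ZNF416 and ZNF749, which were not. A match describes these letters alone and says nothing of binding.

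Along the chromosome, runs of members were marked off by the sign of the log2 ratio, with both signs in the second run. Sizes varied widely within a run, from -3.97 to -0.05 in the third. The borders of the runs were drawn after the values had been seen, so the counts describe the order and carry no test. The first run, from ZNF444 to PEG3, spans 708.1 kb and ends at the widest gap between neighbouring members, 350.8 kb. All 7 of its members that passed the filter were lower, out of 11, with a median log2 ratio of -0.46. From ZNF264 to ZNF416, over 387.4 kb, 8 of 14 were higher and 6 lower, with a median of 0.01 and equal sums of 50.42 in both groups. From ZIK1 to ZNF274, over 635.1 kb, all 17 that passed were lower, out of 22, with a median of -0.43 and sums of 62.77 against 109.3. The last members, ZNF544 and ZNF8, were both higher.

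**Figure D3:**
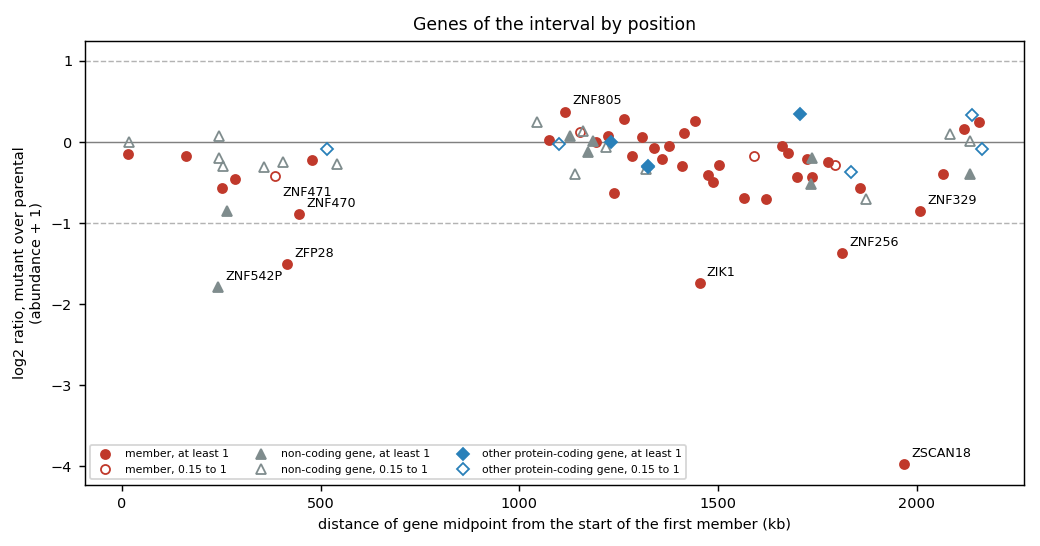
Log2 ratio (mutant over parental, abundance plus 1) of genes between the first and last member against the distance of the gene's midpoint from the first member's start in kb; circles are members, triangles non-coding genes and diamonds other protein-coding genes, open where the higher group mean is between 0.15 and 1. The members from ZIK1 onward up to ZNF274 lie below 0, and those between ZNF264 and ZNF416 lie on both sides of it.

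In the first run, ZNF444, which encodes a SCAN domain protein, was the most abundant member of the mutant group. It stood at 23.8 against 26.3, with ZNF444-211 at 11.2 against 14.5 and ZNF444-201 at 8.56 against 8.25. ZSCAN5A, another SCAN domain gene, had 1.63 against 1.96. Both were within 20% of their parental level. Among the lower ones ZNF582, a KRAB gene whose promoter is known to be methylated in cervical neoplasia, had 2.93 against 4.84, and its transcript ZNF582-201 had 0.511 against 1.65 (p 0.0034 in the authors' deposited table). ZNF583 had 1.24 against 2.08, and ZNF71 had 3.11 against 3.79. ZNF470 had 0.109 against 1.06, close to the lower limits of both the level filter and the near-silent count.

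Several genes around ZFP28 were low in the mutant group, the non-coding ones on few parental reads. ZNF471, a KRAB gene known for promoter methylation in several tumours, was listed at 0 in the mutant group against 0.339 in the parental one, from an estimated 73.4 reads. The antisense RNA gene ZNF667-AS1 was listed at 0 against 0.234, AC005498.2 at 0 against 0.184, and AC005498.3, antisense to ZFP28, had 0.0046 against 0.120. These genes lie between ZNF667 and ZNF71 and were picked after their values were seen. In the same stretch AC004696.2, AC004696.1, AC005498.1 and SIGLEC31P were listed at 0 in both groups. ZNF667 itself was near 0 in both groups, at 0.0117 and 0.0054, and so were ZNF835 (a listed 0 and 0.00675) and PEG3 (0.00305 and a listed 0). PEG3 is the paternally expressed gene of an imprinted domain.

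In the second run many members had like values in both groups. ZNF264 had 3.17 against 3.09, ZNF543 2.18 against 2.17 and ZNF749 8.69 against 8.31, with ZNF749-203 at 6.51 against 6.20 and ZNF749-201 at 1.93 against 1.85. ZNF304, a KRAB gene whose protein is known to recruit a silencing complex to the INK4-ARF locus, had 2.94 against 2.74. ZNF772 had 1.79 against 1.94, ZNF773 3.97 against 4.14 and ZNF550 4.63 against 4.22. These genes were among the 16 members within 20% of the parental level.

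The widest positive ratio of the cluster belonged to ZNF805, at 1.74 against 1.11 and a log2 ratio of 0.37, and its transcript ZNF805-201 had 1.18 against 0.585 (p 0.0441 in the authors' deposited table). ZNF548 had 6.69 against 5.31 and ZNF416 2.47 against 1.90. On the lower side of this run ZNF547 had 1.52 against 2.91, a log2 ratio of -0.63. It lies between ZNF304 and ZNF548, which were both higher. ZNF17 had 2.22 against 2.64, ZNF419 5.55 against 6.57 and ZNF549 1.94 against 2.61. ZNF460 stayed below the filter, with 0.916 against 0.755.

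The third run opens with ZIK1, whose annotated gene overlaps that of ZNF416 by 0.471 kb; the first was low in the mutant group and the second higher. ZNF530 followed with 5.08 against 7.05, mostly through ZNF530-203 (1.69 against 3.59, p 0.00237 in the authors' deposited table). ZNF134 had 3.78 against 5.75, ZNF211 5.01 against 6.30 and ZNF551 2.12 against 4.06. ZNF776 had 4.77 against 8.41, a log2 ratio of -0.70, with ZNF776-201 at 3.40 against 6.23 (p 0.0118 there). From ZNF530 to ZNF776 every member that passed was thus lower, and none reached 2-fold.

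Past ZNF776, ZNF586 had 4.03 against 4.23 and ZNF552 1.89 against 2.16. ZNF587B had 1.23 against 2.02, ZNF814 2.86 against 4.22, ZNF587 5.00 against 5.95 and ZNF417 1.99 against 2.56. ZNF417 and ZNF587 encode near-identical proteins known to bind and repress HERVK elements. Their reads are hard to assign, since 30.5% of the 50-base stretches of ZNF417 also occur in ZNF587. ZNF587B shares 24.1% of its stretches with other genes and ZNF8 22.2%, so single values of these members are uncertain. For ZSCAN18, ZFP28, ZIK1 and ZNF256 the shared part was at most 0.192%.

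Toward the end of the run, ZNF606 had 1.31 against 2.41. ZNF329 had 2.27 against 4.88, a log2 ratio of -0.85, and its difference lay mostly in ZNF329-201 (1.42 against 3.84, p 0.00228 in the authors' deposited table), while its starts farther upstream had 0.786 against 1.00 and 0.0632 against 0.0457. ZNF274, with KRAB and SCAN domains both, was the most abundant member of the parental group. It stood at 26.7 there and at 75% of that level in the mutant group, a log2 ratio of -0.40, with ZNF274-212 at 5.69 against 8.22 (p 0.236) and ZNF274-201 at 3.79 against 5.60.

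Several members of the third run were low in both groups and did not pass the filter. ZNF154 and ZNF671, known as genes methylated in tumours, had 0.0891 against 0.130 and 0.0654 against 0.196, and ZNF418 had 0.0618 against 0.297. ZNF671-205 had 0.0062 against 0.113 (p 0.00323 in the authors' deposited table). ZSCAN4, a gene of the early embryo, had 0.00908 against 0.0266, and ZNF135 was listed at 0 in both groups. Among genes of the PEG3 domain and partners of ZSCAN4, 0 of 13 in the table reached 1.

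At the end of the cluster, ZNF544 had 12.8 against 11.3 and ZNF8 3.46 against 2.76. The small gene difference of ZNF544 joined transcripts that went opposite ways: ZNF544-209 had 4.53 against 2.47 (p 0.271 in the authors' deposited table) and ZNF544-204 3.33 against 2.05, whereas ZNF544-213 had 0.486 against 2.36 (p 0.0335). The authors' software assigned the reads to transcripts, and its way of doing so bears on such opposite values.

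The authors' deposited table tested 295 of 344 member transcripts, and its p-value was under 0.05 for 26, where 5.79% of all 140552 tested transcripts had one. On the lower side were 23, against 2.48% of all transcripts, and on the higher side 3, against 3.3%. Those 3 were ZNF805-201, ZNF548-207 (0.292 against 0.0599, p 0.0355 there) and ZNF444-207 (0.103 against a listed 0, p 0.00761 there). After the adjustment in the authors' deposited table no member transcript stayed under 0.05, and 31 transcripts (0.0221%) of the whole table did. Nothing in the labels says that the libraries came from separate cultures, so these p-values may measure technical spread only.

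Genes of the interval other than protein-coding zinc finger genes gave a mixed picture, and several of them overlap members in position. Of 64 non-coding genes 8 reached 1, 6 of them lower and 2 higher, with a median log2 ratio of -0.29. The zinc finger pseudogene ZNF542P, whose annotated span overlaps that of ZNF582, stood out with 0.859 against 5.42, a log2 ratio of -1.79. ZNF582-AS1 had 1.07 against 2.72. It lies on the opposite strand just beyond the annotated span of ZNF582, and it overlaps that of ZNF583. Of 19 other protein-coding genes 3 reached 1, 2 lower and 1 higher. The higher one, AC010522.1, overlaps ZNF587B and holds 13.7% of its 50-base stretches. The most abundant, TRAPPC2B, a subunit gene of a vesicle tethering complex, had 15.8 against 15.9. TRAPPC2B lies inside the annotated span of ZNF547, on the same strand, and that member of the second run had 1.52 against 2.91.

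The other large zinc finger clusters of chromosome 19 lay lower still, side by side and untested. At 19p13.2, 21 of 25 genes at 1 or above were lower, with a median of -0.43. At 19q13.12 it was 27 of 30 with a median of -0.69, at 19q13.41 22 of 22 with -1.17, and at 19p12 16 of 17 with -1.34. At least 2-fold lower were 4, 10, 12 and 11 of them. Of 240 zinc finger genes on other chromosomes, 109 were lower and 131 higher, and their median was 0.03. The members of 19q13.43 held the smallest median difference of the 5 clusters and, in ZSCAN18, the most negative single ratio.

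**Figure D4:**
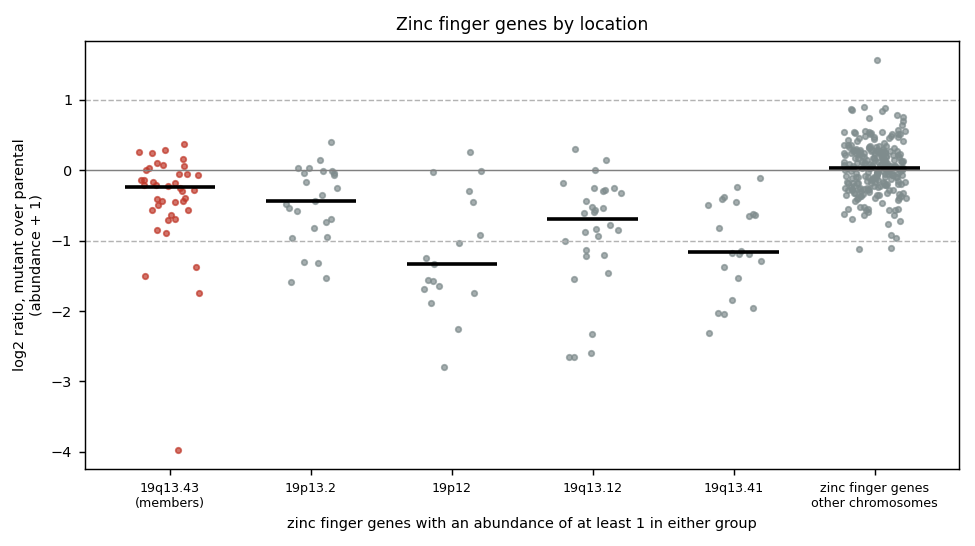
Log2 ratio (mutant over parental, abundance plus 1) of zinc finger genes by location, kept where 1 of the groups had an abundance of 1 or more; each point is a gene and the black bar is the median of the set. The bar is at -0.24 for 19q13.43 and at -1.34 for 19p12, and at 0.03 for zinc finger genes on other chromosomes.

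GC content differed between these sets of genes. The median GC content of the most abundant transcript was 45.5% for the members, 42.5% at 19p13.2, 39.2% at 19q13.12, 41.1% at 19q13.41 and 37.2% at 19p12, against 48.7% for all genes. With a running median over GC content taken off, the median of the members was -0.22 in place of -0.24, and the medians of the other clusters were -0.33, -0.55, -1.01 and -1.20 in the same order. Within the cluster Spearman's rho of the log2 ratio was 0.26 with transcript GC (40 genes of the same libraries), -0.08 with parental level and -0.14 with position. These are descriptions across genes, which are not replicates.

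The promoters were compared as to what the members share. Windows of 300 bases were matched for 44 members, with 1 window each, the nearest to the start of the most abundant transcript. The other sets were not thinned in this way, with 329 promoters for 301 zinc finger genes on other chromosomes. The shares and medians below are thus not fully like for like. Their median CpG count was 21, from 2 to 42, against 14 for all 35116 promoters, while GC content was close at 59.3% against 58.7%. The ETS core CCGGAAG stood in 25 of the 44, or 56.8%, against 39.3% in the other 4 clusters, 30.1% in zinc finger genes elsewhere and 10.3% in all promoters. The CTACA element stood in 20, or 45.5%, against 10.4%, 7.30% and 1.90% in the same order. It was searched for because it had been seen in the members' windows, so its share among them is not independent. CCAAT stood in 65.9% of members and 34.6% of all promoters, and may occur within longer motifs.

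Of the other motifs, GGGCGGG stood in 45.5% against 33.1% of all promoters and the NRF1 site in 18.2% against 5.78%. TATAAA stood in 2 windows, against 11.5% of all promoters. The palindrome of TCTCG followed by CGAGA (0.424% of all) and the YY1 motif, AA and ATGG with any base between and then CGGC (1.44% of all), had no match among the members.

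**Figure D5:**
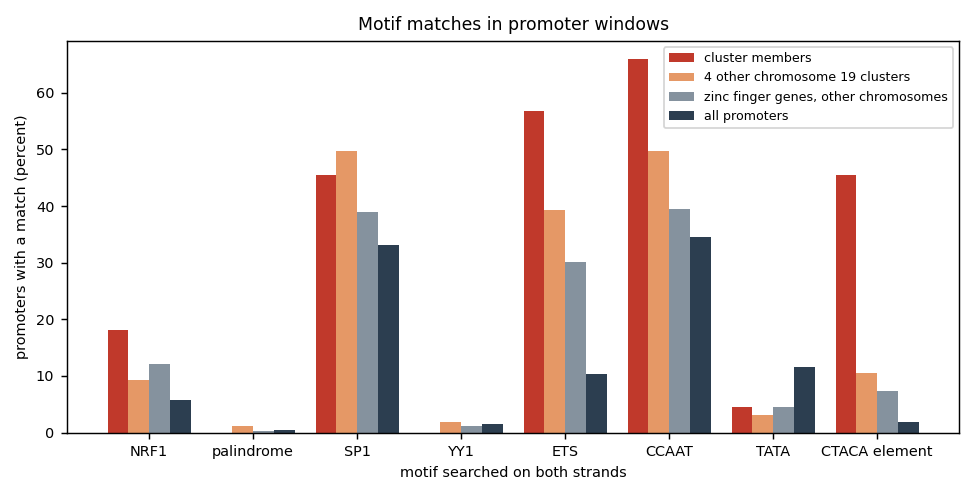
Percent of promoter windows of 300 bases with at least 1 match on either strand to each motif, for the 44 cluster members with a window, 163 promoters of the other 4 clusters, 329 promoters of zinc finger genes on other chromosomes and all 35116 promoters. The ETS bar of the members is at 56.8% and the CTACA element bar at 45.5%, against 10.3% and 1.90% for all promoters.

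The motifs were also set beside the levels. Among members that passed the filter the median log2 ratio was -0.40 with and -0.16 without an ETS core. It was -0.21 with and -0.31 without the CTACA element. Other motifs went the opposite way to the ETS core: -0.18 with and -0.40 without the SP1 box, and -0.18 with and -0.48 without CCAAT. The 6 members with an NRF1 site, among them ZSCAN18 and ZNF256, had a median of -0.77, against -0.18 for the 30 others. The rho of the log2 ratio with CpG count was -0.09 over 36 promoters.

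Cofactors through which KRAB proteins act were mostly a little lower in the mutant group. Of 22 that reached 1, 19 were lower and 3 higher, with a median of -0.15, where 50.6% of all genes were lower. At least 2-fold lower was 1, against 1.61% of all genes. TRIM28 had 271 against 306 and SETDB1 21.1 against 21.3. UHRF1, which reads hemimethylated DNA for the maintenance methyltransferase DNMT1, had 25.2 against 54.8, and DNMT1 85.9 against 101. The most abundant UHRF1 transcript, UHRF1-207, had p 0.0754 in the authors' deposited table. MORC2, an ATPase of the HUSH silencing pathway, had 12.1 against 17.9 (p 0.00169 and adjusted p 0.369 for MORC2-202 in the authors' deposited table). Of 270 cofactor transcripts tested there, 10 had an unadjusted p under 0.05 and 9 of them were lower, near the 5.79% and 2.48% of all transcripts, and 0 had an adjusted one.

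For the whole series, the steps in the values gave estimates between 13300000 and 57500000 reads per mutant library and between 9190000 and 15310000 per parental library. Passing members had a median of 844 estimated reads in the mutant and 486 in the parental group. Of 8 HEK293 markers, NEFM (0.0690 against 8.63) and INA (a listed 0 against 6.11) were near or at 0 in the mutant group alone, while NEFL, another neurofilament gene, was higher there (434 against 35.7). VIM (530 against 425), KRT8 (37.3 against 70.6) and KRT18 (51.8 against 57.7) were present in both. Of 8 markers of blood, fibroblast and endothelial cells, 1 reached 1, the collagen gene COL1A1 (5.82 against 2.17). The part of these shifts in the members' values was not tested, and in bulk RNA fewer cells of a kind and less RNA per cell cannot be told apart.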

How the data were processed

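Total RNA of 6 HEK293 libraries, 3 of each group, was made into libraries with random primers, per the labels' protocols. Per the submitters' processing notes, bcl2fastq, STAR and Partek were used with the genome build hg38; not given in the sources used here were versions, annotation, filters and the handling of strand and of reads with several matches. Without strand, antisense partners share reads.

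The authors' deposited table compared the groups. Per the file headers it gives a score called LSMean for each group, which the values show to be the mean of a length-scaled abundance plus 1. It also holds p-values, their adjusted form, a ratio and a fold change as scores, and a signal called total counts, 3 times the sum of both means. In the deposited table abundance summed to 496162.2 in each group.

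Abundance was the group mean minus 1, summed over the transcripts of a gene (Python 3.11.15, pandas 2.3.3). Genes with at least 1 in either group were kept. Transcripts were placed with GENCODE 29. What 1 read was worth in each library was taken from steps in abundance times length. This step was tested on data simulated with read sizes close to those found for the mutant libraries. Sizes like those of the parental libraries were not simulated. The estimated reads follow from the worth of 1 read if each library of a group held the mean abundance of the group. GC trends were removed by running medians over 40 bins, averaged over 5. Every member is named, with both values where it passed the filter (for ZNF274 the mutant value is given as a percent of the parental one). Transcripts are given for members at least 2-fold apart or near silent in 1 group and for the 5 most abundant, and others were picked after their values were seen. Members, lists and rules were chosen with earlier results of these data known. Fits of single libraries, planned if such values were given, were replaced by description, and protein features were not analysed here. Alternatives were an added 0.1, an abundance of at least 5, no filter, the most abundant transcript, GC trend removal, other thresholds, and, added after seeing the data, the loss of members with over 20% shared stretches of 50 bases or of ZSCAN18.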

Additional observations from a re-analysis of the deposited data

How the results depend on the processing

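Of 43 alternative values, 33 kept their direction and size within the limits set and 10 moved. The ratios among them, for the members' median and the 4 members at least 2-fold lower, did not change sign. With the GC trend removed, 29 members were lower in place of 30. Small ratios then changed sign: ZNF586 of the third run from -0.05 to 0.01, ZNF772 from -0.07 to 0.07 and ZNF749 from 0.06 to -0.02. Among the main results, the count of members at least 2-fold lower went from 4 to 1 at an abundance of at least 5. There 12 members were left, and 1.33% of all genes were at least 2-fold lower. The count of member transcripts with a small deposited p-value was 12 at a limit of 0.01 in place of 26 at 0.05. Of all 140552 tested transcripts, 2458 met the limit of 0.01. The median log2 ratio of the members ran from -0.30 with 0.1 added to -0.19 without a filter or with the most abundant transcript, and it was -0.22 without ZSCAN18 and without the members that share sequence. With 0.1 added 6 members were at least 2-fold lower, ZNF470 and ZNF329 being the added ones, where 3.34% of all genes were. The log2 ratios of ZSCAN18, ZFP28, ZIK1 and ZNF256 were then -7.16, -3.86, -3.32 and -1.97, so that ZFP28 and ZIK1 changed places. With a limit of 0.2 the near-silent members numbered 3, with ZNF470. No paired analysis was possible because only group means were analysed, and leaving out single libraries was not run for the same reason. Low reads limit ZSCAN18, ZFP28 and ZNF470 in the mutant group, where levels came from 0.995, 14.1 and 60.2 estimated reads.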
